A study of Mus musculus with 36 samples.

Results

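The BCL2 family sets whether the outer membrane of a mitochondrion stays closed or is opened, the step that commits most cells to intrinsic apoptosis. Expression of 10 family genes was followed in RAW 264.7 cells, an established mouse macrophage-like line derived from a virus-induced tumour. The genes were taken by symbol from the deposited expression table: 4 pro-survival genes (Bcl2, Bcl2l1, Mcl1 and Bcl2a1b), the 2 pore-forming effectors (Bax and Bak1) and 4 BH3-only genes (Bik, Pmaip1, Bbc3 and Bcl2l11). All 10 were found among the 53465 genes of the table, and all 10 passed the filter on low counts that left 16988 genes for testing. Passing through a filter over 12 groups says only that a gene was counted in some of them. Bik passed only through the groups with LPS, so its calls between groups with and without LPS had to follow and are a description.

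The RNA-seq series held 36 libraries of wild-type RAW 264.7 cells in 12 groups of 3. One group received solvent, and another received 10 µg/mL lipopolysaccharide (LPS), the bacterial cell-wall component sensed through Toll-like receptor signalling. A further 5 groups received melatonin alone at 0.1, 1, 10 or 100 µM or at 1 mM, and another 5 were given the same doses 30 min ahead of 10 µg/mL LPS. Cells in every group were collected after 12 h, so each level is a single late time point in 1 line and not in primary macrophages. Whether replicates were grown as separate cultures is not stated in the labels. Every p-value therefore rests on library-to-library spread alone, and this may be technical. The stated purpose was to examine how melatonin acts on inflammation and how this depends on its concentration.

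Pro-survival family proteins hold Bax and Bak in check and bind the BH3-only proteins. BH3-only proteins are sensors: they neutralise the pro-survival proteins or activate Bax and Bak directly, after which cytochrome c leaves the mitochondria and caspases are activated. In macrophages, Toll-like receptor signalling through NF-kB is known to induce A1 (the product of the Bcl2a1 genes), and short-lived Mcl1 is needed for myeloid cell survival. These measurements are of RNA, and many family members are controlled after transcription, so they do not report protein or cell death.

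Library totals ran from 4203313 to 7590271 gene-assigned counts (median 6649254), which puts 3 counts, used here as the limit of detection, at 0.395 to 0.714 CPM (the count of a gene scaled to the total of its library). Values below are in CPM scaled by the TMM normalisation unless FPKM is named, and each group is given as its 3 libraries in the order of their labels. Summed macrophage markers reached 3240 to 13000 CPM in every library, whereas summed fibroblast, epithelial, T-cell and B-cell markers stayed at or below 9.55, 1.55, 3.73 and 1.35 CPM. Fewer cells and less RNA per cell cannot be told apart in such bulk libraries. Replicate 1 of 1 µM melatonin and replicate 3 of 1 mM melatonin, the 2 doubtful libraries below, went against their labels. Over the 18 libraries without LPS, deviations of 11742 genes in the first correlated with replicates 1 and 2 of 1 mM melatonin at 0.102 and 0.084, but with its own group at -0.144 and -0.135. The second correlated with its own group at -0.116 and -0.106. Apart from Bik, called differences of family genes that rest on either library, and those whose call changes without them, are therefore also given without both. Replicate 3 of LPS with 1 mM melatonin stood apart from its group as well: the chi-square over its degrees of freedom was 37.7 and 37.1 against its mates and 14.4 between them. It had the highest TMM factor (1.19), and its part in the results at this dose was not tested beyond the values without it given below.

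The Bcl2a1 promoters are shown because the largest LPS response among the pro-survival genes was theirs and because Bcl2a1b is one of several near-identical copies. Bcl2a1b lies on the plus strand of chromosome 9 (GRCm38, 89199209 to 89207827, 2 merged exons). Its copies Bcl2a1a (88956900 to 88962419, plus) and Bcl2a1d (88723285 to 88731914, minus) lie on the same chromosome. The sequences run 5′ to 3′ on each gene's strand up to the annotated gene start and come from RefSeq (GRCm38.p6), at chr9:89199023-89199208 for Bcl2a1b, chr9:88956670-88956899 for Bcl2a1a and chr9:88731915-88732100 for Bcl2a1d. Capitals mark TGAATCA, a match to the AP-1-type letters TGANTCA, and GAGGAAGT, a PU.1-type motif. The AP-1-type letters were searched with any base (N) at the centre.
Bcl2a1b: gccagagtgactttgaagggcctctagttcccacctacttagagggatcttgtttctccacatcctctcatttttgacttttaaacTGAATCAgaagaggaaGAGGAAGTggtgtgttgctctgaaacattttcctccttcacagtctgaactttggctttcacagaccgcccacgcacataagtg
Bcl2a1a: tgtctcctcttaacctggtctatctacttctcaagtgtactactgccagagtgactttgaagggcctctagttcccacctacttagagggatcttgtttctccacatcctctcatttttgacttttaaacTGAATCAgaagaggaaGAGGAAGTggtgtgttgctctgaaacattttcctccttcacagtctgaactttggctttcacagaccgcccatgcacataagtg
Bcl2a1d: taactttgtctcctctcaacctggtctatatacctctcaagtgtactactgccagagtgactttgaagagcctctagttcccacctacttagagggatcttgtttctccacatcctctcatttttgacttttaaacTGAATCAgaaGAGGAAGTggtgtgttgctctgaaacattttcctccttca
All 3 windows held both motifs, a few bases apart and in the same order. A further gene of this name on chromosome 9, Bcl2a1c, had the PU.1-type letters without the AP-1 letters, and 0 counts in every library. Searched on both strands of 32841 RefSeq promoter windows of 250 bases, the AP-1 letters occurred in 6.75% and the PU.1-type letters in 2.44%. The promoter entries of Bcl2a1a and Bcl2a1b were 99.2% identical over 256 aligned bases, and that of Bcl2a1d was 96.0% and 96.5% identical to them. The promoter search covered 8 of the 10 family genes and left out Bik and Pmaip1, whose promoters were therefore not examined. Among the other 7, Bak1 had the PU.1-type letters, and an NF-kB consensus (found in 7.25% of windows) occurred before 1 of the listed starts of Bcl2l1 and of Bbc3. It had no match in the 3 Bcl2a1 windows, which says only that these letters are not in them. A match is a run of letters and was not tested for binding.

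LPS given alone raised Bcl2a1b, Bik, Bax and Bcl2l11 and lowered Pmaip1. Thus 5 of the 10 genes changed at an adjusted p under 0.05 in edgeR's quasi-likelihood test, where 16.5% of all tested genes were called. There were 4 up and 1 down, against 8.4% and 8.09% of all tested genes. Leaving Bik aside, 4 of the 9 other genes were called, 3 up and 1 down. The median log2 difference of all 10, with Bik, was 0.38, against -0.02 over all tested genes. The 5 others (Bcl2, Bcl2l1, Mcl1, Bak1 and Bbc3) did not pass. DESeq2 also called 5. Comparisons against solvent share the solvent libraries, and comparisons against LPS alone share the LPS libraries.

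Bcl2a1b encodes A1, a pro-survival protein that binds BH3-only partners. It stood at 51.8, 49.9 and 45.8 CPM in solvent and at 540.0, 463.0 and 499.5 CPM with LPS. The groups were far apart, and the log2 difference was 3.35 ± 0.24 (SE, n = 3 libraries a group, adjusted p = 6.58e-15). LPS also raised it in cells given melatonin, by 3.06, 3.28, 3.03 and 2.95 on the log2 scale at 0.1, 1, 10 and 100 µM, and by 1.97 ± 0.23 at 1 mM (adjusted p = 1.79e-08). These 6 calls held under every alternative analysis run for them. Without the pair of libraries that go against their labels, the responses at 1 µM and 1 mM were 2.95 and 2.41.

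With 1 mM melatonin before LPS, Bcl2a1b reached 135.6, 123.4 and 89.8 CPM, below every library of LPS alone. The mean was thus 116.3 ± 23.7 CPM (SD, n = 3) against 500.8 ± 38.5, a log2 difference of -2.10 ± 0.22 (adjusted p = 3.07e-09). At the 4 lower doses the LPS-treated means were 392.8 ± 34.1 (0.1 µM), 383.1 ± 24.3 (1 µM), 359.9 ± 9.78 (10 µM) and 313.5 ± 27.1 CPM (100 µM; SD, n = 3 each). Every one of these 12 libraries lay below the lowest library of LPS alone, yet none of the 4 differences passed. Their log2 values were -0.35, -0.39, -0.48 and -0.68, with adjusted p from 0.122 to 0.473. With only the 6 compared libraries in the fit, the difference passed at 100 µM (adjusted p = 0.000246), 10 µM (0.00335) and 1 µM (0.0300). At 100 µM it also passed without the doubtful libraries (-0.67, adjusted p = 0.00239), neither of which is in this comparison.

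Without LPS, Bcl2a1b in 1 mM melatonin was 19.9, 24.0 and 45.3 CPM, all below solvent. That difference did not pass at -0.73 ± 0.23 (adjusted p = 0.192). It passed without the 2 libraries that go against their labels, at -1.16 (adjusted p = 1.05e-05), the highest value, 45.3 CPM, being one of them. In 1 µM melatonin the 3 libraries read 19.4, 47.7 and 51.4 CPM, and the lowest was the other. The difference between the LPS response with and without 1 mM melatonin was itself tested: it was -1.38 ± 0.31 on the log2 scale (adjusted p = 0.01). It was -0.94 without replicate 3 of 1 mM melatonin, where it no longer passed (adjusted p = 0.0915), and -0.94 without both doubtful libraries, where it did (0.00908). With only the 12 compared libraries it did not pass (adjusted p = 0.0627).

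The near-identical copies limit what Bcl2a1b counts can mean. Only 20.8% of 50-base windows in its transcripts occurred in no other gene, compared with 20.5% for Bcl2a1d and 31.0% for Bcl2a1a. For 100-base windows the shares were 43.2%, 45.3% and 56.5%, and the read length is not given in the sources used here. The annotated readthrough gene Gm29094 covers 49.08% of the exonic bases of Bcl2a1b and had 0 counts in all libraries. It counts as another gene in these shares, so part of the sharing may be this overlap and not the copies. How the counting treated reads that fit several copies is not given in the sources used here, so the split among copies is uncertain. Processed pseudogenes held 19.5% to 21.5% of the counts of each library, and protein-coding genes 69.1% to 72.6%. Whether reads that fit several places account for this was not tested. Bcl2a1a read 5.10, 15.5 and 7.34 CPM in solvent and 188.3, 163.7 and 189.8 CPM with LPS, a log2 difference of 4.27 ± 0.40. Bcl2a1d read 55.4, 47.6 and 51.5 CPM and then 531.7, 460.8 and 496.5 CPM, a difference of 3.27 ± 0.24. With 1 mM melatonin under LPS both were lower than in LPS alone, by log2 differences of -2.97 ± 0.37 and -2.14 ± 0.23. At 100 µM Bcl2a1d was also lower than in LPS alone (-0.86 ± 0.22, adjusted p = 0.0334), while Bcl2a1a did not pass (-1.11 ± 0.34, adjusted p = 0.106). Bcl2a1b made up 38.4% to 52.9% of the counts of the 3 copies in libraries without LPS and 42.1% to 48.3% in those with LPS. Summed into 1 gene (an analysis chosen after seeing the data), they differed from LPS alone at 100 µM melatonin by -0.81 (adjusted p = 0.0405).

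**Figure D1:**
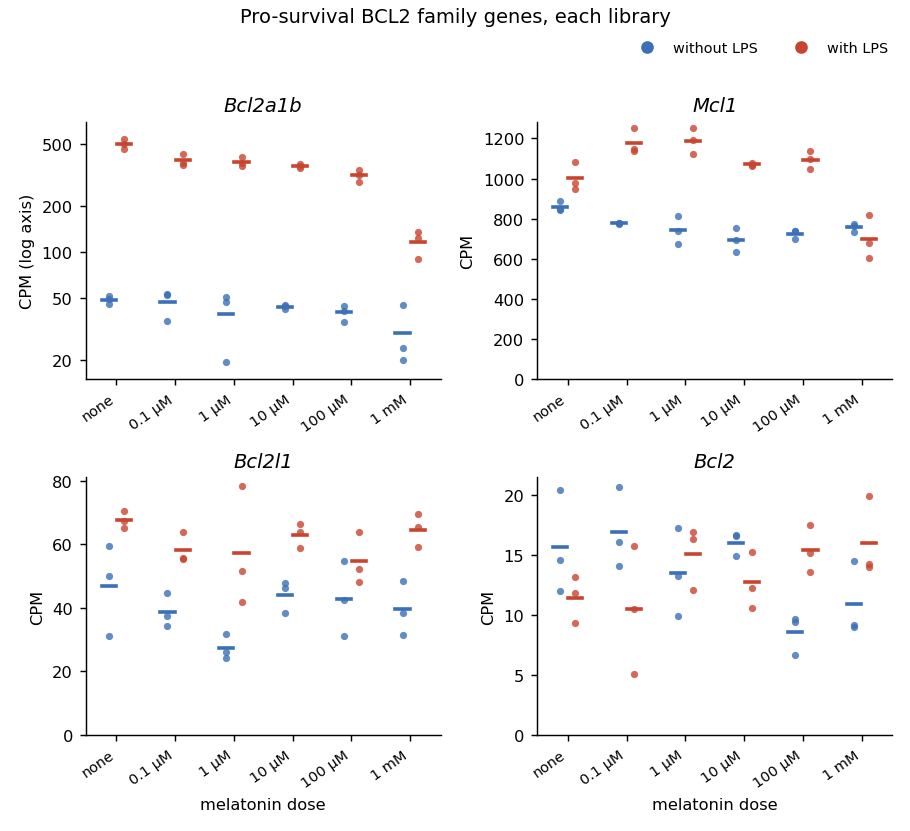
Pro-survival genes in each library: CPM (vertical axis, log for Bcl2a1b and linear from 0 for the others) by melatonin dose, without LPS in blue and with LPS in red; points are libraries and bars are group means (n = 3). Bcl2a1b with LPS falls from 500.8 CPM without melatonin to 116.3 CPM at 1 mM, while Mcl1 with LPS is lowest at 1 mM (699.8 CPM).

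Mcl1, a short-lived pro-survival protein that restrains Bak and binds Bcl2l11 and Pmaip1 proteins, was the most abundant family transcript without LPS. It read 847.0, 888.2 and 845.3 CPM in solvent and 976.3, 1084 and 947.6 CPM with LPS. The groups did not overlap, but the log2 difference of 0.22 ± 0.10 did not pass (adjusted p = 0.156). In cells with melatonin LPS raised Mcl1 at the 4 lower doses, by 0.60, 0.68, 0.62 and 0.59 on the log2 scale at 0.1, 1, 10 and 100 µM (adjusted p from 2.94e-06 to 3.42e-05), and by 0.62 at 1 µM without the doubtful libraries. With LPS, the means at these doses were 1177, 1188, 1071 and 1093 CPM in the same order, against 1003 CPM in LPS alone. None of them differed from LPS alone at the threshold. The baselines without LPS were lower than solvent. Every one of the 15 libraries with melatonin alone (635.1 to 812.3 CPM) lay below the lowest solvent library, although none of the 5 differences passed (-0.15 to -0.31, adjusted p from 0.525 to 0.799).

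At 1 mM melatonin the LPS response of Mcl1 was -0.11 ± 0.10 (adjusted p = 0.607), and it was -0.11 (adjusted p = 0.648) without the doubtful libraries. The LPS libraries at this dose read 817.7, 679.4 and 602.5 CPM, below all 3 of LPS alone. Mcl1 was thus lower than in LPS alone, with a log2 difference of -0.52 ± 0.10 (adjusted p = 0.000651). The call was lost when only the 6 compared libraries were fitted (-0.51, adjusted p = 0.131). The difference between its LPS responses with and without 1 mM melatonin did not pass (-0.33 ± 0.15, adjusted p = 0.318).

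Bcl2l1 encodes Bcl-xL, a pro-survival protein of the mitochondrial outer membrane. It read 50.1, 31.1 and 59.3 CPM in solvent and 70.5, 67.4 and 65.2 CPM with LPS. The LPS libraries were all higher, but the difference of 0.53 ± 0.23 did not pass (adjusted p = 0.116). LPS raised it in cells with 1 µM melatonin, by 1.06 ± 0.23 (adjusted p = 0.000766; 1.03 and 0.00536 without the doubtful libraries), from 26.2, 24.3 and 31.9 CPM to 78.3, 51.4 and 42.0 CPM. A call at 1 mM (0.71 ± 0.23, adjusted p = 0.0413) was lost in 8 of 13 alternatives. These included leaving out the doubtful libraries (0.69, adjusted p = 0.105), replicate 1 or 3 of melatonin alone, or any single LPS library (0.57 to 0.77, adjusted p from 0.0568 to 0.223). At 0.1, 10 and 100 µM the differences of 0.59, 0.52 and 0.36 did not pass.

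Bcl2 itself, the founding pro-survival gene, was counted at 5.09 to 20.7 CPM over the 36 libraries. Solvent read 20.4, 14.6 and 12.0 CPM and LPS 13.2, 9.32 and 11.9 CPM, and these overlapped. No comparison called Bcl2. Its LPS differences ran from -0.69 at 0.1 µM to 0.84 at 100 µM, with SEs of 0.37 to 0.38. An antisense gene covers 6.09% of its exonic bases, and the strand setting of the counting is not given in the sources used here.

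The effectors form the pores in the outer membrane. Bax read 24.0, 42.4 and 27.6 CPM in solvent and 61.6, 56.2 and 46.1 CPM with LPS. The groups did not overlap, and LPS raised it by 0.80 ± 0.26 on the log2 scale (adjusted p = 0.0274). That call was lost without solvent replicate 1 or 3 or LPS replicate 1 or 2 (0.64 to 0.79, adjusted p from 0.0694 to 0.172). LPS also raised Bax at 100 µM melatonin (0.85, adjusted p = 0.0168). This call was lost without replicate 3 of melatonin alone (0.73, adjusted p = 0.105) or of LPS with melatonin (0.70, 0.111). A call at 1 µM (0.87, adjusted p = 0.0147) was lost without the doubtful libraries (0.56, adjusted p = 0.145). Replicate 1 or 2 of 1 µM melatonin alone and replicate 2 of LPS with 1 µM each ended it too (0.57 to 0.84, adjusted p from 0.0532 to 0.179), as did fitting only the compared libraries (0.87, adjusted p = 0.0676). At 1 mM the LPS response of Bax did not pass (0.48, adjusted p = 0.287), but it did without the doubtful libraries (0.77, adjusted p = 0.0480).

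Bax means were highest at the 1 and 10 µM doses, with and without LPS. With 10 µM melatonin alone it read 66.2, 68.7 and 56.6 CPM, above every solvent library, and with 1 µM it read 27.9, 50.6 and 79.4 CPM. Neither difference passed in the fit of all libraries (1.03 and 0.75, adjusted p = 0.190 and 0.378). Both passed without the 2 doubtful libraries (1.03 and 1.05, adjusted p = 0.0224 and 0.0243). Neither library is in the 10 µM comparison, where leaving them out altered only what the fit shares over all groups. Under LPS the same 2 doses gave 76.9, 79.8 and 94.4 CPM at 10 µM and 83.6, 108.8 and 95.9 CPM at 1 µM. All 6 were above LPS alone, with differences of 0.62 and 0.81 that did not pass (adjusted p = 0.430 and 0.146). The difference at 1 µM passed without the doubtful libraries (0.82, adjusted p = 0.0445) and with only the compared libraries (0.81, adjusted p = 0.0172). The doubtful libraries are not among those compared there. The levels at 1 mM with LPS, 48.4, 51.5 and 34.3 CPM, overlapped those of LPS alone. A neighbouring annotated gene, Gm45808, shares 12.18% of the exonic bases of Bax.

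Bak1, the effector that resides at the mitochondrial membrane, read 32.6, 45.4 and 39.0 CPM in solvent and 36.1, 60.0 and 37.9 CPM with LPS. These overlapped, and the difference was 0.20 ± 0.21. LPS raised Bak1 at 10 µM melatonin from 29.4, 37.0 and 34.3 CPM to 58.3, 73.8 and 75.3 CPM, a log2 difference of 1.04 ± 0.21 (adjusted p = 0.000304). A call at 1 mM (0.70 ± 0.21, adjusted p = 0.0268) was lost in 6 of 13 alternatives, with adjusted p up to 0.166. Among these were leaving out replicate 1 or 2 of melatonin alone, or replicate 1 or 3 with LPS (0.59 to 0.69). Without the doubtful libraries it was 0.86 (adjusted p = 0.0158). Under LPS, Bak1 means at the 5 melatonin doses were 55.1 to 73.4 CPM against 44.7 ± 13.3 in LPS alone (SD, n = 3), and none passed. At 100 µM the difference was 0.72 ± 0.21 (adjusted p = 0.0876). It passed in DESeq2 (0.70, adjusted p = 0.0381) and without LPS replicate 2, the highest library of LPS alone (0.98, adjusted p = 0.0316). Ggnbp1, on the opposite strand, overlaps Bak1 exons.

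**Figure D2:**
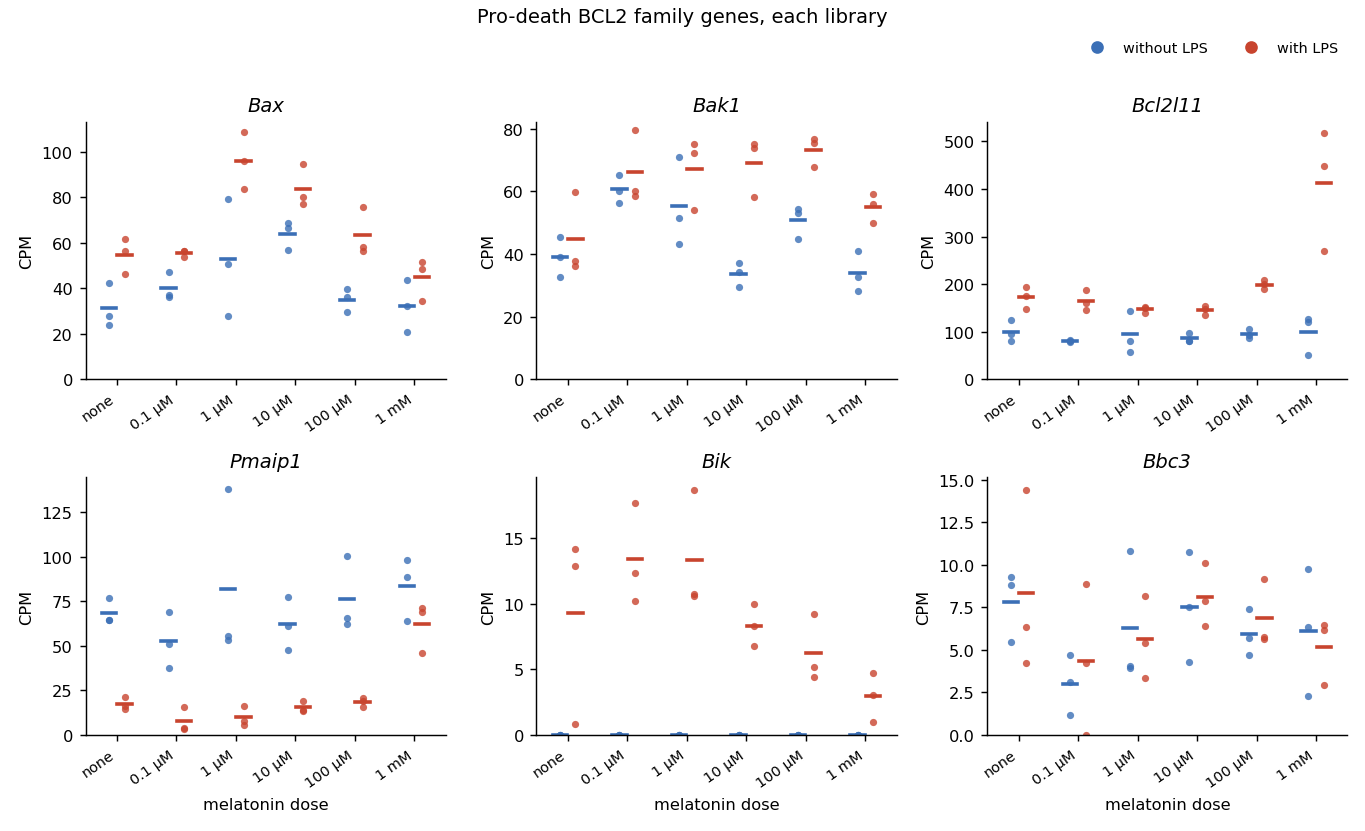
Effector and BH3-only genes in each library: CPM (vertical axis, linear from 0) by melatonin dose, without LPS in blue and with LPS in red; points are libraries and bars are group means (n = 3). Bcl2l11 with LPS is highest at 1 mM melatonin (412.2 CPM), Pmaip1 with LPS is low except at 1 mM (62.1 CPM), and Bik lies at 0 in every library without LPS.

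Bcl2l11 encodes Bim, a BH3-only protein that binds all pro-survival members and can activate Bax. It read 124.5, 80.1 and 94.5 CPM in solvent and 194.9, 148.6 and 174.2 CPM with LPS. All LPS libraries were above solvent, and LPS raised it by 0.79 ± 0.24 (adjusted p = 0.0167). This call was lost without solvent replicate 2 or 3 or LPS replicate 1 (0.66 to 0.75, adjusted p from 0.0636 to 0.111). In cells with melatonin LPS raised it by 1.03 at 0.1 µM, 0.76 at 10 µM and 1.08 at 100 µM. The call at 10 µM was lost without replicate 1 or 2 of melatonin alone, or replicate 1 or 3 of LPS with melatonin (adjusted p from 0.0535 to 0.0836). At 1 µM it was 0.65 (adjusted p = 0.0623), or 1.10 (adjusted p = 4.24e-05) without the doubtful libraries.

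At 1 mM melatonin Bcl2l11 read 121.3, 127.4 and 50.4 CPM without LPS and 447.9, 518.4 and 270.4 CPM with it. LPS raised it there by 2.05 ± 0.25 (adjusted p = 4.12e-08), or by 1.73 (adjusted p = 6.35e-09) without the doubtful libraries. All 3 LPS libraries of this dose exceeded all others of the series. Against LPS alone the log2 difference was 1.26 ± 0.24 (adjusted p = 0.000328), and that call held in all 13 alternatives. The spread was wide, 412.2 ± 127.8 CPM (SD, n = 3), and the lowest library, replicate 3, was the one that stood apart from its group and also the shallowest of the series. The LPS response with 1 mM melatonin exceeded that without it by 1.26 ± 0.34 (adjusted p = 0.0405). That call was lost in 8 of 19 alternatives, with adjusted p up to 0.213. The libraries whose absence ended it were solvent 1 and 3, LPS 2 and 3, 1 mM melatonin 3, and LPS with 1 mM melatonin 1 and 2. The difference was 0.94 (adjusted p = 0.121) without replicate 3 of 1 mM melatonin and 0.94 (0.0337) without both doubtful libraries.

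Pmaip1 encodes Noxa, a BH3-only protein that mainly neutralises Mcl1 and A1. It read 64.4, 64.7 and 76.6 CPM in solvent and 16.4, 21.1 and 14.5 CPM with LPS. The groups were far apart, with a log2 difference of -1.98 ± 0.37 (adjusted p = 7.53e-05). LPS also lowered Pmaip1 at 0.1, 1, 10 and 100 µM melatonin, by differences of -2.75, -3.06, -2.00 and -2.04. These 5 calls held under every alternative. At 1 µM the difference was -2.46 without the doubtful libraries, one of which was the highest Pmaip1 library of the series (137.6 CPM, against 55.5 and 53.1 CPM in its group).

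At 1 mM melatonin the LPS libraries read 69.1, 45.9 and 71.4 CPM and overlapped those with melatonin alone, 98.0, 88.8 and 63.7 CPM. The difference of -0.43 ± 0.35 did not pass (adjusted p = 0.546), and neither did it without the doubtful libraries (-0.59, adjusted p = 0.373). Against LPS alone Pmaip1 was higher by 1.84 ± 0.37 (adjusted p = 0.00065), and this call held in all 13 alternatives. The difference between the LPS responses, 1.56 ± 0.51, did not pass (adjusted p = 0.123) and passed in 2 of 19 alternatives, while without the doubtful libraries it was 1.39 (adjusted p = 0.146). The lowest Pmaip1 mean was in LPS with 0.1 µM melatonin, at 4.13, 3.58 and 15.4 CPM. There the difference from LPS alone was -1.16 ± 0.39 (adjusted p = 0.147), or -2.17 (adjusted p = 0.00293) without its replicate 3.

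Bik, a BH3-only gene whose protein acts largely at the endoplasmic reticulum, had 0 counts in all 18 libraries without LPS. With LPS it read 12.9, 0.873 and 14.2 CPM (85, 6 and 92 counts), so 1 of these libraries stood apart near the limit of detection. Against 3 counts over the 3 solvent libraries, Bik was at least 57.9-fold higher with LPS. The matching lower bounds were 79.2-fold at 0.1 µM, 82.6-fold at 1 µM, 62.0-fold at 10 µM, 44.0-fold at 100 µM and 22.2-fold at 1 mM melatonin. These 6 differences are among the calls counted here, but the filter fixed their direction and no p-value is given for them. The 3 LPS libraries at 1 mM read 3.06, 4.75 and 0.998 CPM. They lay within the range of LPS alone, and the difference of -1.65 ± 0.83 did not pass (adjusted p = 0.275).

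Bbc3 encodes Puma, a BH3-only protein that binds all pro-survival members. Its libraries read 5.44, 8.79 and 9.29 CPM in solvent and 4.25, 14.4 and 6.32 CPM with LPS, and one of LPS with 0.1 µM melatonin had 0 counts. No comparison called Bbc3. The SE was 0.74 to 0.77 for its LPS response and for melatonin against solvent, so a difference of 1 on the log2 scale would be under 2 SE.

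**Figure D3:**
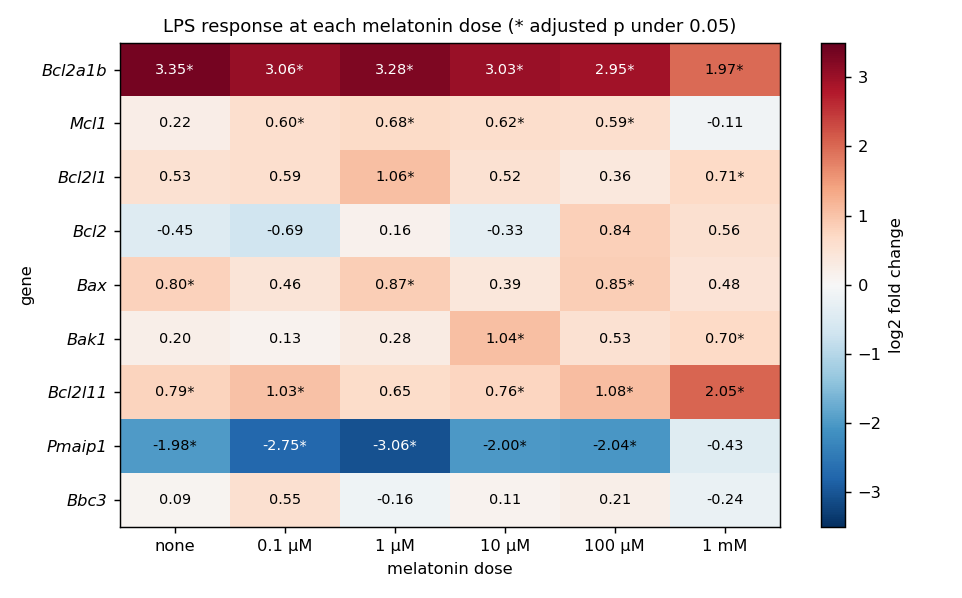
LPS response of 9 genes (log2 fold change of LPS against no LPS at the same melatonin dose, colour and printed value) by dose, with an asterisk where edgeR's adjusted p is under 0.05. Bcl2a1b is positive at every dose and least so at 1 mM (1.97), Pmaip1 is negative at every dose but not called at 1 mM, and Bcl2l11 is highest at 1 mM (2.05); Bik is left out because it is at 0 without LPS.

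Read by dose, LPS changed 5 of the 10 genes at 0.1 µM melatonin, where 15.7% of all tested genes were called. These were 4 up and 1 down, against 7.95% and 7.71% of all genes. At 1 µM it changed 6 (15.4% called), 5 up and 1 down (7.98% and 7.4%). At 10 µM it also changed 6 (16.1% called), 5 up and 1 down (8.44% and 7.65%). The 6 at 100 µM (16.8% called) were again 5 up and 1 down (9.06% and 7.72%). At 1 mM the 5 called (9.62% of all genes) were all up, against 4.87% up and 4.75% down over all genes. Without the doubtful libraries 5 were called there as well, with Bax in place of Bcl2l1, and at 1 µM 6, with Bcl2l11 in place of Bax. Pmaip1 was the gene that fell at the 4 lower doses. Bcl2a1b and Bik rose at every dose. Mcl1 rose at the 4 doses below 1 mM. Bak1 rose at 10 µM and 1 mM, and Bcl2l1 at 1 µM and 1 mM, with both calls at 1 mM lost under several alternatives. Each of these counts includes Bik, which passed the filter only through groups with LPS.

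Melatonin alone called none of the 10 genes at any dose in edgeR's quasi-likelihood test, nor in DESeq2. Bik, at 0 counts in all these groups, could not be called and has no p-value in the counts of this paragraph. The share of all genes called was 0.0824% (10 µM and 100 µM), 0.147% (1 µM), 0.341% (0.1 µM) and 0.418% (1 mM). From the lowest dose to the highest, the counts at an unadjusted p under 0.05 were 1 (Bak1), 4 (Bcl2l1, Mcl1, Bax and Bak1), 2 (Mcl1 and Bax), 2 (Bcl2 and Mcl1) and 1 (Bcl2a1b) of 10. Over all tested genes the shares at that threshold were 9.3%, 8.29%, 6.82%, 5.97% and 10.8% in the same order. Bak1 at 0.1 µM read 56.5, 65.3 and 60.2 CPM, above all solvent libraries, with a difference of 0.64 ± 0.21 (adjusted p = 0.242). Bcl2l1 at 1 µM read 26.2, 24.3 and 31.9 CPM, and its difference from solvent was -0.77 ± 0.23 (adjusted p = 0.250).

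Melatonin on top of LPS changed 4 of the 10 genes at 1 mM, where 7.55% of all genes were called: Bcl2l11 and Pmaip1 were higher than in LPS alone, and Bcl2a1b and Mcl1 lower. Over all genes 2.84% were higher and 4.71% lower. The 6 others did not pass, and the median log2 difference of the 10 was -0.18, against 0.02 over all tested genes. Without replicate 3 of this LPS group, the lowest of its group for 6 of the 10 genes, the 4 calls held, at -1.95 for Bcl2a1b (adjusted p = 1.11e-07), -0.42 for Mcl1 (0.00403), 1.73 for Pmaip1 (0.00291) and 1.48 for Bcl2l11 (2.1e-05). At 100, 10, 1 and 0.1 µM none passed in edgeR, where 1.18%, 0.371%, 0.612% and 1.36% of all genes were called. DESeq2 called 1 gene at 100 µM (Bak1) and none at the 3 other doses. At an unadjusted p under 0.05 the counts at these 4 doses were 2, 3, 4 and 3 of 10, against 12.4%, 9.81%, 11.7% and 13.5% of all tested genes. The LPS response differed with and without 1 mM melatonin for 2 of the 10, where 1.69% of all genes were called. Bik, at 0 counts in both groups without LPS, has no estimate of this difference and could not be called. Bcl2l11 had the larger response with melatonin (0.63% of all genes) and Bcl2a1b the smaller (1.06%). Without replicate 3 of LPS with 1 mM melatonin these differences were 1.48 (adjusted p = 0.00615) and -1.22 (adjusted p = 0.0243).

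**Figure D4:**
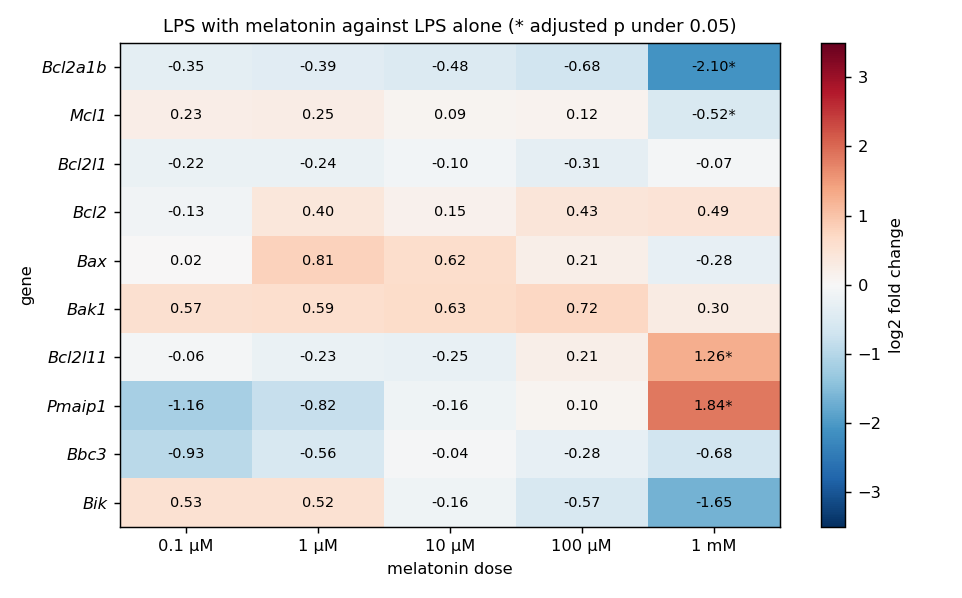
LPS with melatonin against LPS alone for the 10 genes (log2 fold change, colour and printed value) by melatonin dose, with an asterisk where edgeR's adjusted p is under 0.05. Asterisks appear at 1 mM for Bcl2a1b (-2.10), Mcl1 (-0.52), Pmaip1 (1.84) and Bcl2l11 (1.26), and at no lower dose.

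Levels can be compared between genes only per length, in the authors' FPKM. In solvent the order was Mcl1 (247.5 ± 6.14 FPKM, SD, n = 3), Bcl2a1b (59.2 ± 3.74), Pmaip1 (25.5 ± 2.59), Bax (19.5 ± 6.02), Bak1 (15.9 ± 2.55), Bcl2l11 (12.2 ± 2.82), Bcl2l1 (10.1 ± 3.11), Bbc3 (3.63 ± 0.96), Bcl2 (1.68 ± 0.47) and Bik, listed at 0. From Pmaip1 to Bcl2l1, each pair of neighbours differed by less than the sum of their SDs. With LPS alone Bcl2a1b led at 596.4 ± 46.0 FPKM, ahead of Mcl1 at 285.3 ± 20.6. Pmaip1 fell to 6.37 ± 1.26 FPKM, and Bik stood at 9.61 ± 7.57. In LPS with 1 mM melatonin Mcl1 led again, at 198.1 ± 31.6 FPKM against 137.8 ± 28.8 for Bcl2a1b, followed by Bcl2l11 at 49.7 ± 15.6. FPKM of Bcl2a1b carries the same uncertainty about its copies.

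Of 16 other BCL2 family genes 11 were tested, and LPS raised 2 (Bcl2a1a and Bcl2a1d) and lowered 1, where 16.5% of all tested genes were called. The one lowered was Bnip3l, a mitophagy receptor related to BH3-only proteins, which went from a mean of 79.3 to 44.7 CPM (-0.83 ± 0.22, adjusted p = 0.00497). Bcl2l2, which encodes pro-survival Bcl-w, had means of 16.5 and 32.2 CPM and did not pass (0.96 ± 0.42, adjusted p = 0.125). At 1 mM melatonin under LPS, 2 of the 11 were lower (Bcl2a1a and Bcl2a1d) and none higher, where 7.55% of all genes were called. Bid, a BH3-only protein cleaved by caspase-8, had means of 63.4 CPM in LPS and 96.3 CPM with melatonin (0.60 ± 0.22, adjusted p = 0.0876).

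Downstream of the pore, 14 of 15 genes of the apoptosome, caspases and mitochondrial factors were tested. LPS raised 1 (Vdac3, a mitochondrial channel, 0.57) and lowered 1, with 12 not called, so that 2 of 14 were called, near the 16.5% of all tested genes. The one lowered was the mitochondrial channel gene Vdac1, which fell by 0.69 on the log2 scale. With 1 mM melatonin under LPS 2 of the 14 were higher than in LPS alone and none lower (7.55% of all genes were called). Diablo, which encodes an antagonist of the inhibitors of apoptosis, differed by 0.79 and Apaf1, the scaffold of the apoptosome, by 0.89.

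Among 8 genes for inhibitors of apoptosis, LPS raised 2 (Birc3, 1.45, and Naip2, 1.22) and lowered 1 (Birc5, -1.89 ± 0.23, adjusted p = 1.54e-08). Birc5 encodes survivin, which also serves in mitosis. For this list and those that follow, the shares of all genes called were again 16.5% for LPS and 7.55% for 1 mM melatonin under LPS. None of the 8 passed at 1 mM melatonin under LPS. Of 12 genes of the death receptor pathway, LPS raised 4 and lowered 1 (Cradd, -1.50, named after its values were seen). Cradd had a mean of 25.7 CPM in solvent and 9.08 CPM with LPS, and LPS lowered no gene of this list at any of the 5 melatonin doses, where Cradd differed by -0.15 to -0.99. Melatonin alone lowered 1 of the 12 at every dose, where 0.0824% to 0.418% of all genes were called. This was Traf1, which differed by -1.32 to -1.95 (named after its values were seen) from the 3 solvent libraries that all 5 comparisons share. The 4 were Tnfrsf1b (3.68 ± 0.25), a TNF receptor, Cflar (2.16 ± 0.15), which blocks caspase-8, Traf1 (1.78) and Fas (4.84 ± 1.17). At 1 mM melatonin under LPS 2 of the 12 were lower, Tnfrsf1b (-2.73 ± 0.23) and Cflar (-0.81 ± 0.14). Of 15 tested regulators of family transcription and stability, LPS raised 5, with the smallest adjusted p for Nfkb1 (2.08), Myc (3.40) and Atf4 (1.13), and lowered 1 (E2f1, -1.63). At 1 mM melatonin under LPS 3 of the 15 were lower (Nfkb1, -0.97, Myc, -1.71, and Atf4, -0.56) and none higher.

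The 3 family genes whose group means ranged most widely over the 12 groups were Bik (5.45 on the log2 CPM scale), Bcl2a1b (4.15) and Pmaip1 (3.67). For Bik, at 0 counts without LPS, the lower end is set by the count of 2 added before taking logs. Mcl1 ranged least (0.78). Among 8625 protein-coding genes, the profiles most like Bik over the 12 group means were those of Ccl9, Slc11a1 and Rhoc (Pearson r = 0.991 each). Those most like Bcl2a1b were its copy Bcl2a1d (0.998), Mtdh and Plek (0.997 each), and those most like Pmaip1 were Pcyox1, Haus3 (0.975 each) and Trappc10 (0.973). These coefficients are descriptions: the points share libraries, and the step between groups with and without LPS makes up most of the range.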

How the data were processed

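Total RNA of RAW 264.7 cells was sequenced from Illumina TruSeq libraries, per the labels' protocols. Per the submitters' processing notes, cutadapt and featureCounts were used with the mm10 build; the aligner, versions, annotation release, strand setting and treatment of multi-mapping reads are not given in the sources used here. The deposited raw counts per gene were tested, and the authors' deposited FPKM values served only to order levels between genes.

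Libraries were assigned to the 12 groups by their labels. Counts were fitted with edgeR 4.0.16 in R 4.3.3 (filterByExpr, TMM factors 0.914 to 1.19, quasi-likelihood test, 1 mean per group over all 36 libraries, 24 residual degrees of freedom), with Benjamini-Hochberg adjustment over 16988 genes and a threshold of 0.05. The fit was tested on simulated data. Genes at 0 in a whole group were bounded with 3 counts over that group. Library pairs of 1 group gave 8.95 to 37.7 for chi-square over its degrees of freedom, more than sampling noise gives, so none were merged. Depth set a floor of 0.395 to 0.714 CPM for 3 counts, and floors cover counting error only.

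Alternatives were RLE factors, no filter, a replicate block, only the compared libraries, DESeq2 1.42.0, leaving out each replicate or the 2 doubtful libraries, and summed Bcl2a1 copies. Gene positions came from GENCODE M21 (GRCm38), which matched 53360 of the table's IDs (99.8%), and promoters from RefSeq. The family genes and the other gene lists were chosen with earlier results of these data known. One gene of the list downstream of the pore is not reported here and was left out of that list's counts. All 10 family genes are described. From each other list the text names up to 4 genes with the smallest adjusted p for LPS against solvent and for LPS with 1 mM melatonin against LPS, and any gene of the list of other BCL2 family genes. Likeness was ranked for the 3 widest-ranging family genes among protein-coding genes with a mean of at least 5 CPM and no Gm or Rik name.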

Additional observations from a re-analysis of the deposited data

Results flagged for a closer look

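Bcl2a1b and Bcl2l11 were listed because their LPS responses with and without 1 mM melatonin differed by a test of that difference itself (edgeR's quasi-likelihood test, n = 3 libraries a group). For Bcl2a1b the log2 difference between responses was -1.38 (adjusted p = 0.01): LPS raised it by 3.35 without melatonin and by 1.97 with 1 mM. For Bcl2l11 it was 1.26 (adjusted p = 0.0405): LPS raised it by 0.79 without melatonin and by 2.05 with 1 mM. Both take their 1 mM baseline from a group that holds replicate 3, one of the libraries that went against their labels. Without that library alone the differences were -0.94 (adjusted p = 0.0915) and 0.94 (adjusted p = 0.121).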

How the results depend on the processing

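Of 39 calls of single family genes (6 of them of Bik, whose direction the filter fixed), 29 held under every alternative run for them, 10 were lost under at least 1, and 0 reversed; 14 further differences passed only under some alternative. Numbers of family genes called moved by over 1.5 times, or from 0, as follows; smaller moves are left out. With no filter on low counts there were 3 in place of 5 for the LPS response at 1 mM melatonin, and 1 in place of 0 for melatonin at 1 mM and at 10 µM and for LPS with 100 µM and with 0.1 µM against LPS. With only the compared libraries there were 2 for the LPS response at 1 mM (Bcl2l1 and Bak1 were lost, and Bik did not pass the filter there or for LPS against solvent and was not tested), 1, 1 and 2 for LPS with 100, 10 and 1 µM against LPS, and 1 in place of 2 for the difference between LPS responses, a different gene (Pmaip1, 1.56, adjusted p = 0.0377), since Bcl2a1b and Bcl2l11 were both lost. Without the 2 doubtful libraries there was 1 in place of 0 for melatonin at 1 mM, 10 µM and 1 µM and for LPS with 100 µM and 1 µM against LPS. Neither library is in the comparison at 10 µM or in those against LPS. DESeq2, and the summed Bcl2a1 counts chosen after seeing the data, each gave 1 for LPS with 100 µM against LPS. The cause of the other moves was not tested. Leaving out 1 replicate at a time gave 3 to 5 for LPS against solvent, 3 to 4 for the LPS response at 1 mM, 0 to 2 for the difference between LPS responses, and 0 to 1 for melatonin at 1 mM and 1 µM and for LPS with 100 µM and 0.1 µM against LPS. A group left with 2 libraries borrowed its spread from the others.

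Replicate numbers did not pair the libraries: 198 same-numbered pairs of different groups had a mean correlation of deviations of -0.002 (-0.041 to 0.05), and 9 of 36 libraries correlated best with their own number. With a replicate block the LPS response of Bcl2l11 at 1 µM was 0.70 (adjusted p = 0.0329), which made 7 family genes in place of 6 there, and no other call of a family gene changed. Over all genes, 71 were called for melatonin at 1 mM, but 485 without the 2 doubtful libraries, 175 by DESeq2, 151 with no filter and 0 with only the compared libraries. For LPS with 1 mM melatonin against LPS these were 1282 in all libraries and 558 in only the compared ones, and for the LPS response at 1 mM 1634 and 595. For the difference between LPS responses they were 287 and 102, against 472 by DESeq2. At the 4 lower melatonin doses the fits called 14 to 58 genes for melatonin alone, or 0 to 338 under these alternatives, and 63 to 231 under LPS, or 53 to 626. Leaving out 1 library moved most of these small counts by over 1.5 times. For melatonin alone it gave 10 to 347 in place of 71 at 1 mM (10 without replicate 2 and 347 without replicate 3 of that group), 14 to 16 in place of 14 at 100 µM, 9 to 14 in place of 14 at 10 µM, 3 to 66 in place of 25 at 1 µM (3 without solvent replicate 1 and 66 without replicate 1 of melatonin) and 11 to 33 in place of 58 at 0.1 µM. Under LPS it gave 82 to 134 in place of 201 at 100 µM, 17 to 40 in place of 63 at 10 µM, 50 to 81 in place of 104 at 1 µM and 46 to 221 in place of 231 at 0.1 µM (17 and 46 without replicate 2 of the group with melatonin). Depth limits Bik without LPS, where 0 counts in a group allow up to 3.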
